A study of Mus musculus with 8 samples.

Results

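The genes considered here encode proteins of neutrophil granules, cytosol and surface, and are S100a8, S100a9, Ngp, Camp, Retnlg, Csf3r, Mpo, Elane and Il1r2. They were taken by gene symbol and make up 9 of the 22756 genes whose reads were counted on coding sequence (CDS) in each library. The rule used no measured value, but the genes were chosen with earlier results of these data known. The libraries were made from the distal lung of adult mice (> 90percent C57BL/6) after lavage of the airspaces and magnetic depletion of CD45+ cells, a procedure meant to enrich epithelium. The α7G line (Chrna7-IRES-tauGFP) has a reporter placed behind the nicotinic receptor gene Chrna7, and the α7E260A:G line (Chrna7-E260A-IRES-tauGFP) has the same reporter and a point mutation that limits the calcium current of the receptor. There were 4 groups: α7G control, α7G CS, α7E260A:G control and α7E260A:G CS. CS stands for exposure to side-stream cigarette smoke on 5 days per week for 4 months, and controls breathed room air. Each group had 1 male and 1 female library, 8 in all, so the spread within a group is also the difference between the sexes, and the 2 cannot be told apart, nor from anything else that set the libraries of a group apart. The number of mice behind a library was not stated, so p-values measure only the spread between these libraries.

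Neutrophils form in the bone marrow in steps, and their granule proteins are made in the same order. Myeloperoxidase and neutrophil elastase of the primary granules are transcribed in promyelocytes, and cathelicidin and neutrophilic granule protein of the specific granules are transcribed in myelocytes. S100a8 and S100a9, resistin-like gamma and surface receptors such as those for granulocyte colony-stimulating factor are transcribed late and persist in the mature cell, which enters the lung from blood and holds little transcript of the earlier granule genes.

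S100a8 and S100a9 lie 22.6 kb apart on chromosome 3, and Ngp and Camp lie 570.3 kb apart on chromosome 9. The sequences before the start sites of these gene pairs are shown because the members of each pair moved together between libraries while the pairs moved apart. Each is the 250 bases before the RefSeq start (build GRCm38.p6), read 5′ to 3′ on the strand of the gene, and a window was found for 9 of the 9 genes. Capitals mark matches to TTGCNNAA, a form of the C/EBP motif, and to GGAAGT, a form of the motif of ETS factors such as PU.1, both searched on either strand, and to TATAAA on the strand of the gene. S100a8 is chr3:90668821-90669070 on the plus strand, S100a9 is chr3:90695722-90695971 on the minus strand, Ngp is chr9:110419558-110419807 on the plus strand and Camp is chr9:109849457-109849706 on the minus strand.
S100a8: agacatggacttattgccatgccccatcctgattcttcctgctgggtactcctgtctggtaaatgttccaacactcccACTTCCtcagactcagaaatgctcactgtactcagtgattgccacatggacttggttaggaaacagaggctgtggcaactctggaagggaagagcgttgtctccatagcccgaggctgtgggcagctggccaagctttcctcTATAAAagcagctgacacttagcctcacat
S100a9: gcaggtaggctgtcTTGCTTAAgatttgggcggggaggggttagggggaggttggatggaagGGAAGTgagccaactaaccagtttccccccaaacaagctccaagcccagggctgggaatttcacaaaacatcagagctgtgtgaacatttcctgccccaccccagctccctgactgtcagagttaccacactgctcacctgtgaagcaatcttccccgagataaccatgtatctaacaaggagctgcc
Ngp: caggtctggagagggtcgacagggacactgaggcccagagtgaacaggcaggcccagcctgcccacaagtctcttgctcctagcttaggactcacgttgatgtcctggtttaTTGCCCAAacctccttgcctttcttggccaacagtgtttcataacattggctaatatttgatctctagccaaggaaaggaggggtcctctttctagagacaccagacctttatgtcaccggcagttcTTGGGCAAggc
Camp: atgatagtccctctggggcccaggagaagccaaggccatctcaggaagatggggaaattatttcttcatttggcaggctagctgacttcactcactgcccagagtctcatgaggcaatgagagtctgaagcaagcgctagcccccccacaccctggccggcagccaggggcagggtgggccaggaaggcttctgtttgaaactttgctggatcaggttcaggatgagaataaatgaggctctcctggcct
The C/EBP form was present in the windows of 3 of the 9 genes (S100a9, Ngp with 2 matches, and Retnlg) and in 9.56% of the 32851 RefSeq windows of the same length. The ETS form was present in those of 5 genes (S100a8, S100a9, Mpo, Elane and Il1r2), against 19.7% of all windows. TATAAA was present only in the window of S100a8 among the 9, at 30 bases before the start, and in 7.59% of all windows. The windows of Camp and Csf3r held none of these letters, which says nothing of the factors themselves.

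Total counts per library lay between 8020726 and 10944100, and 3 counts, taken as the floor, equal 0.27 to 0.37 RPM (counts of a gene scaled to the total of its library, as in CPM), a limit for counting error only. Despite the depletion, transcripts of Ptprc, which encodes CD45, were counted at 771 to 1935 RPM in all 8 libraries, and the 5 leukocyte markers listed summed to 5314 to 6969 RPM in α7G and 5342 to 6759 in α7E260A:G. Ly6g, the surface antigen used to identify mouse neutrophils and 1 of a family of similar genes, had 2 to 23 counts per library. Of the 15 neutrophil markers listed, 14 averaged 10 counts or more over the libraries, and their summed level was 1786 to 3494 RPM in α7G and 1570 to 3785 RPM in α7E260A:G. The 7 markers of bone marrow precursors summed to 1.24 to 4.63 RPM, and Ms4a3 was at 0 in every library. In such bulk samples, fewer cells of a type and less RNA per cell cannot be told apart. Library values also depended on CDS length. The slope, in log2 for each doubling of the CDS, reached 0.38 for the male α7E260A:G control and -0.28 for the female, and lay between -0.21 and 0.18 in the other 6 libraries. Short genes such as S100a8 are touched by this, so values with the dependence removed are given where it matters.

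Levels per kilobase of CDS differed among the 9 genes by more than 4 orders of magnitude. S100a9 had the highest mean level over the 8 libraries, 2586 RPKM (RPM divided by the CDS length in kilobases), with a range of 1182 to 4622. S100a8 followed at 2176 RPKM (909 to 4470), Retnlg at 383 (158 to 561), Csf3r at 65.9 (21.6 to 149), Ngp at 34.7 (6.74 to 81.2), Camp at 16.0 (3.99 to 40.9), Il1r2 at 11.3 (6.03 to 26.1), Mpo at 0.25 and Elane at 0.11. The ranges of S100a9 and S100a8 overlapped, as did those of Csf3r, Ngp, Camp and Il1r2 with each other, while every library had more S100a8 than Retnlg and every library had more Retnlg than any of the genes after it. Ngp and Camp thus lay at levels near those of the receptors, and far above the primary granule genes.

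**Figure D1:**
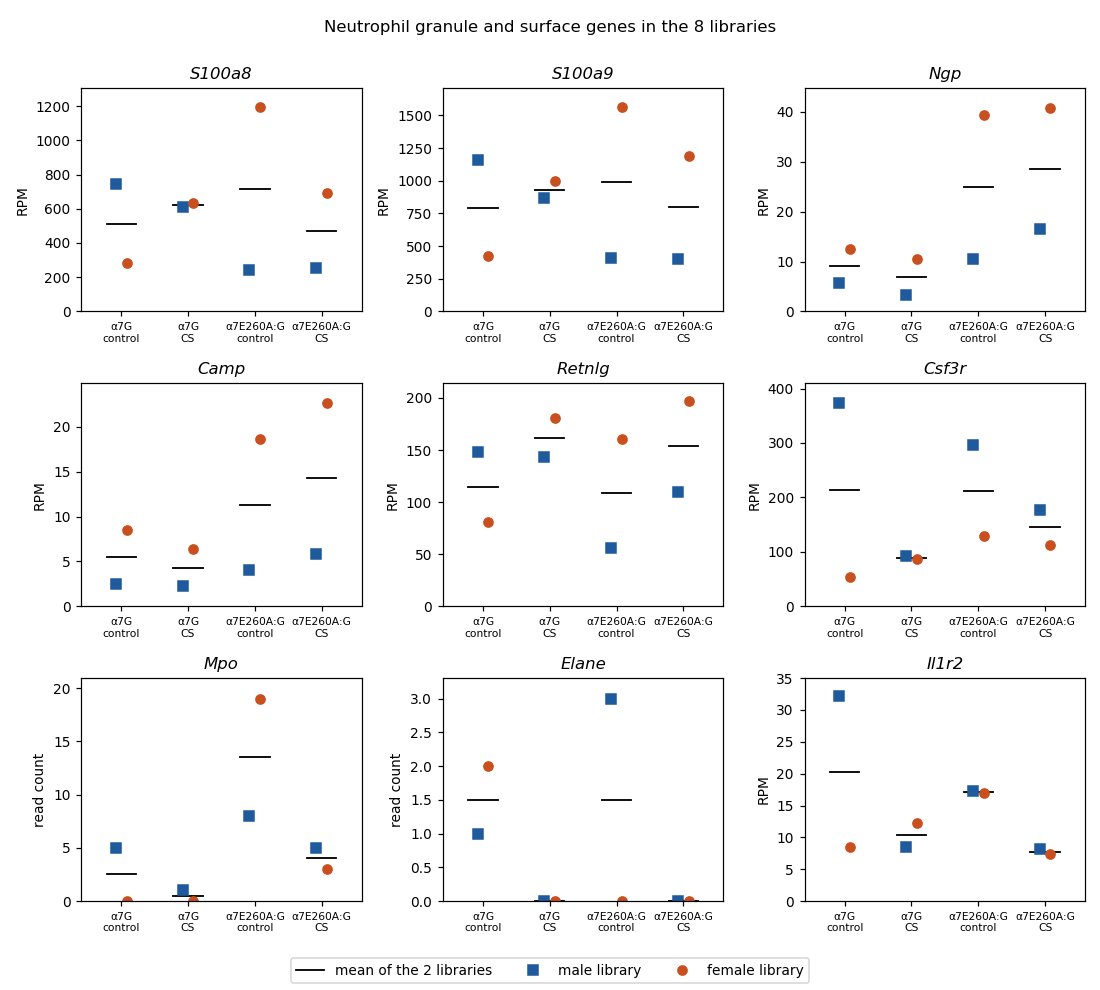
Each panel shows 1 gene, with RPM on a linear axis (read counts for Mpo and Elane) for the male (square) and female (circle) library of each of the 4 groups, and a line at the mean of these 2 libraries. S100a8 and S100a9 share 1 pattern, Ngp and Camp another, and the male α7G control stands highest for Csf3r and Il1r2.

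Of the 9 genes, 7 averaged 10 counts or more and were tested in 1 model of all 13637 such genes, with edgeR (quasi-likelihood, Benjamini-Hochberg adjusted p under 0.05). The test called 0 of the 7 for CS in α7G, beside 0% of all genes, and 0 for CS in α7E260A:G, beside 0.00733%. Unadjusted p-values under 0.05 were given to 0 of the 7 in both, beside 6.71% of all genes in α7G and 3.14% in α7E260A:G. For the difference between these responses 0 of the 7 were called or had such an unadjusted p, beside 0% called and 2.18% of all genes. In RPM, 0 of the 7 separated the 4 libraries of 1 genotype from the 4 of the other without overlap, as 7.88% of all genes did, and 0 separated CS from control, as 2.77% did. With 2 libraries against 2, 0 separated CS from control in α7G (58.2% of all genes) and 0 separated the genotypes in controls (29.7%), while Ngp, Csf3r and Il1r2 separated them after CS (45.1%). The levels of each gene in single libraries follow.

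S100a8 and S100a9 encode the subunits of calprotectin, a calcium- and zinc-binding protein that is abundant in neutrophil cytosol. S100a8 (ENSMUSG00000056054.8, mm9 chromosome 3, 90472993 to 90473956) was at 743 RPM in the male and 284 in the female α7G control, and at 610 and 633 in α7G CS. In α7E260A:G it was at 243 RPM in the male and 1193 in the female control, and at 252 and 690 after CS. The highest level was thus that of the female α7E260A:G control and the lowest that of the male of the same group, and all groups but α7G CS spanned a wide range. S100a9 (mm9 chromosome 3, 90496554 to 90499643) was at 1157, 425, 867 and 996 RPM in the α7G libraries and at 410, 1567, 401 and 1190 in the α7E260A:G libraries, in the same order. The 2 genes kept nearly the same proportion everywhere: the ratio of S100a9 to S100a8 per length lay between 1.03 and 1.36 in the 8 libraries, while S100a8 itself ranged over 4.92-fold.

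By genotype, the mean level of S100a8 was 595 ± 451 RPM (SD, n = 4) in α7E260A:G and 567 ± 198 in α7G (exact permutation p = 0.83, two-sided). That of S100a9 was 892 ± 582 RPM in α7E260A:G and 861 ± 314 in α7G (exact permutation p = 0.914, n = 4 in each). These near-equal means covered opposite differences in the sexes. Among male libraries S100a8 in α7E260A:G was 0.33 times that in α7G in controls and 0.41 times after CS, and among female libraries it was 4.20 times and 1.09 times. In a model with genotype and sex, the genotype difference of S100a8 was larger in females than in males by 2.74 ± 0.63 (log2, SE), and that of S100a9 by 2.53 ± 0.59. Neither was called by the edgeR test (adjusted p = 0.313 for both), and 0% of the 13637 genes tested were called for this term, while 15.7% of them had an unadjusted p under 0.05. The unadjusted p was 0.0026 for S100a8 and 0.0027 for S100a9.

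CS did not separate either gene from control. In α7G the log2 fold-change of S100a8 with CS was 0.43 ± 0.86 (SE), with an adjusted p of 0.861 by edgeR, and it turned to -0.31 once the CDS length dependence was taken out. In α7E260A:G it was -0.74 ± 0.86 by edgeR (adjusted p = 1.00), and without the female α7E260A:G control it was 1.15. The direction in α7E260A:G thus rested on that library, which held the highest level of S100a8. The same fold-changes of S100a9 were 0.39 ± 0.82 in α7G and -0.43 ± 0.82 in α7E260A:G.

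With the length dependence removed, the library levels of S100a8 (log2 CPM, scaled by TMM) were 9.78, 8.15, 8.77 and 8.97 in α7G and 8.57, 9.99, 8.22 and 9.30 in α7E260A:G. The female α7E260A:G control stayed highest, and the female α7G control became the lowest. The female library exceeded the male by 1.43 in the α7E260A:G control and by 1.09 in α7E260A:G CS on this scale, against a difference of -1.64 in the α7G control.

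**Figure D2:**
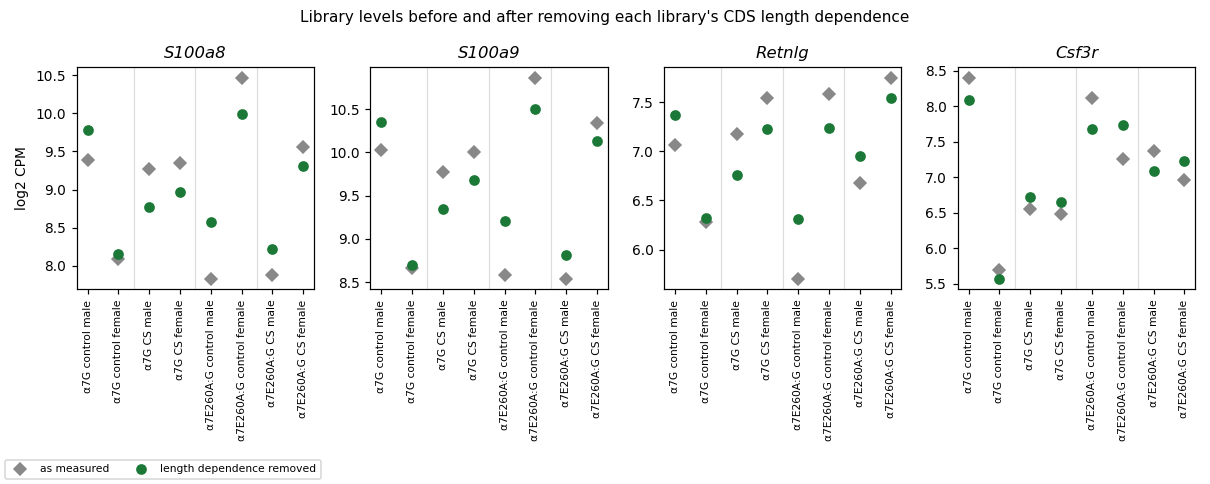
Log2 CPM of 4 genes in the 8 libraries (males and females of each group side by side), as measured (diamond) and after each library's dependence on CDS length was removed (circle). For S100a8 the measured range narrows, and the female α7E260A:G control is highest on both scales.

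Retnlg encodes resistin-like gamma, a secreted protein of mature neutrophils. Retnlg (mm9 chromosome 16, 48872721 to 48874611) was at 148 RPM in the male and 81.3 in the female α7G control, and at 143 and 181 in α7G CS. In α7E260A:G it was at 55.6 and 161 RPM in controls and at 110 and 197 after CS. CS libraries were higher in 3 of the 4 pairs of the same sex and genotype, by 1.22 to 2.22 times, and the male α7G pair was at 0.97 times. Over both genotypes the mean was 158 ± 39 RPM after CS and 111 ± 51 in controls (n = 4 in each, exact permutation p = 0.229), and the log2 fold-change was 0.52 ± 0.43 by edgeR (adjusted p = 0.738). The groups overlapped. By genotype Retnlg was at 0.38 and 0.77 times in males and 1.98 and 1.09 times in females. With the length dependence removed, the male CS pair turned, at 6.95 (log2 CPM) in α7E260A:G against 6.76 in α7G, so that Retnlg was split by sex in controls only.

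Of the 7 genes tested, Ngp and Camp had the largest fold-changes between the genotypes. Ngp encodes neutrophilic granule protein, a cystatin-like protein of the specific granules, and Camp encodes cathelicidin, the precursor of an antimicrobial peptide stored there. Ngp (mm9 chromosome 9, 110322254 to 110325514) was at 5.65 RPM in the male and 12.5 in the female α7G control, and at 3.38 and 10.5 in α7G CS. In α7E260A:G it was at 10.5 and 39.3 RPM in controls and at 16.5 and 40.7 after CS. The female α7E260A:G libraries were far above the rest, and the male α7E260A:G control was level with the female α7G libraries. Camp (mm9 chromosome 9, 109749889 to 109751970) was at 2.53, 8.54, 2.21 and 6.43 RPM in the α7G libraries and at 4.02, 18.6, 5.86 and 22.7 in the α7E260A:G libraries, in the same order.

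The mean of Ngp was 26.7 ± 15.5 RPM in α7E260A:G and 8.0 ± 4.21 in α7G, a ratio of 3.34 (n = 4 in each, exact permutation p = 0.0857, where the design allows no less than 0.0286). For Camp the means were 12.8 ± 9.25 and 4.93 ± 3.08 RPM, a ratio of 2.60 (n = 4 in each, exact permutation p = 0.229). Both genes were higher in α7E260A:G in 4 of 4 pairs matched for sex and exposure, by 1.85 to 4.88 times for Ngp and by 1.59 to 3.53 times for Camp. Of all 13637 genes, 6.72% were higher in all 4 pairs. The log2 fold-change of Ngp was 1.90 ± 0.64 by edgeR (unadjusted p = 0.0182, adjusted p = 0.286) and that of Camp was 1.54 ± 0.75 (adjusted p = 0.523). As this model and the permutation tests had no term for sex, their spread includes the difference between the sexes. Of the 7 genes with enough counts to be tested, 0 were thus called between genotypes, beside 0.0953% of all genes called and 11.4% with an unadjusted p under 0.05, which Ngp alone among the 7 had.

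The difference in Ngp was past the threshold under some other treatments of the counts and not under others. DESeq2 gave a log2 fold-change of 1.93 and an adjusted p of 0.0312. It called 516 of the 13637 genes between genotypes, against 13 by edgeR. Library size scaling and a filter of at least 1 count did not call Ngp, while fits with sex as a replicate block, given further below, did. The fit with both the block and the CDS length offset also called Camp. Without the male α7E260A:G control the edgeR value was 2.26, and without the female α7E260A:G control it was 1.14. The direction held for both genes without any 1 of the 8 libraries, over a range of 1.14 to 2.45 for Ngp and 0.65 to 2.13 for Camp. With both α7E260A:G controls left out, Ngp was still higher in α7E260A:G by 1.95 ± 0.51 (log2, edgeR adjusted p = 0.107). With the CDS length dependence removed, levels of Ngp did not overlap between the genotypes. They were 3.76 to 5.38 (log2 CPM) in α7E260A:G and 1.54 to 3.61 in α7G. In RPM the levels of Ngp overlapped, and the share of all genes without overlap on the adjusted scale was not computed. Ngp was not among the 235 genes called between genotypes once this length dependence entered the edgeR fit, nor was any other of the 7 genes tested.

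**Figure D3:**
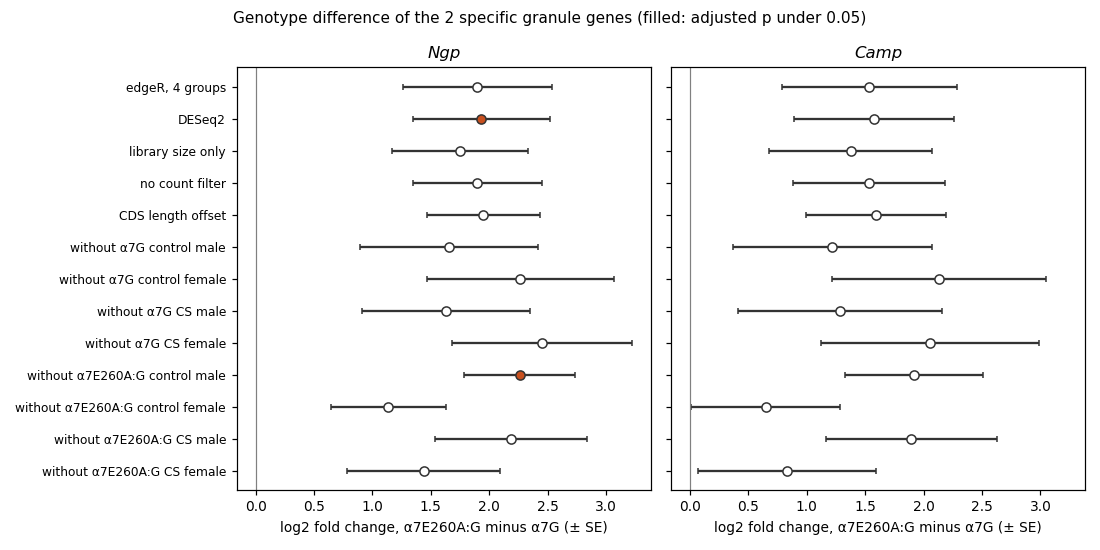
Log2 fold-change of Ngp and Camp between α7E260A:G and α7G over both exposures (horizontal axis, ± SE) in the edgeR test of the 4 groups, under other treatments of the counts and without each library in turn, with filled symbols where the adjusted p was under 0.05. All values are above 0, and those without the female α7E260A:G control are the lowest, 1.14 for Ngp and 0.65 for Camp.

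Ngp and Camp were also higher in the female than in the male library in all 4 groups, by 2.21 to 3.75 times for Ngp and 2.91 to 4.64 times for Camp, as were 6.81% of all genes. No other member was higher in all 4 females, and Csf3r was lower in all 4, at 0.15 to 0.93 times the male level, as were 20.6% of all genes. With the CDS length dependence removed, Csf3r was instead slightly higher in both α7E260A:G females, by 0.05 and 0.14 (log2), while Ngp and Camp stayed higher in all 4. With sex and the 4 groups in 1 model the female excess was 1.68 ± 0.23 (log2) for Ngp and 2.06 ± 0.27 for Camp, and both had an adjusted p of 0.308 by edgeR, which called 0.022% of all genes for sex and gave 16.2% of them an unadjusted p under 0.05. With the CDS length offset in that model Camp was called (1.83, adjusted p = 0.0422) and Ngp was not (1.40, adjusted p = 0.0653). No such order was seen with CS. Ngp after CS was at 0.60 and 0.84 times control in α7G and at 1.57 and 1.04 times in α7E260A:G, and the log2 fold-change over both genotypes was -0.09 ± 0.62 by edgeR (adjusted p = 0.963). The ratio of Ngp to Camp per length stayed between 1.62 and 3.11 in the 8 libraries, while that of S100a8 to Ngp ranged from 28.7 to 339.

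The summed level of alveolar macrophage markers was higher in α7E260A:G and in females, as Ngp and Camp were. The 15 markers summed to 10783 to 18429 RPM in α7G and 25373 to 41410 in α7E260A:G, without overlap, and to more in the female than in the male library of each group. Chi3l3, also listed here as a specific granule gene, made up most of this sum and was higher in each female. Mrc1 was instead higher in α7E260A:G males, at 1619 against 925 RPM in controls and 1376 against 939 after CS. In α7E260A:G, 15 of the 15 macrophage markers were higher, with a median log2 fold-change of 0.81 against 0.03 for all genes. Of these 15, 0 were called, beside 0.0953% of all genes, and 10 had an unadjusted p under 0.05, beside 11.4%. The 9 alveolar type 2 cell markers were all lower, with a median of -1.18, 0 called and 8 with an unadjusted p under 0.05. The 14 neutrophil markers tested, members included, had a median of 0.21, with 10 higher, 4 lower, 0 called and 1 with an unadjusted p under 0.05. The part of other cell types in the levels of Ngp and Camp was not tested.

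Mpo and Elane, the enzymes of the primary granules, were at or near the limit of detection. Mpo (mm9 chromosome 11, 87607083 to 87617915) had 5 and 0 counts in the male and female α7G control, 1 and 0 in α7G CS, 8 and 19 in the α7E260A:G control, and 5 and 3 in α7E260A:G CS. In RPM it was higher in α7E260A:G in 4 of 4 pairs, with means of 0.92 ± 0.61 and 0.18 ± 0.29 (n = 4 in each, exact permutation p = 0.0571), and the genotypes overlapped. Both female pairs were set against 0 counts in α7G. The 6.72% of genes higher in all 4 pairs was taken over genes averaging 10 counts or more, and does not cover Mpo. These are few reads, 19 of them in the female α7E260A:G control. Elane (mm9 chromosome 10, 79349057 to 79350961) had 1 and 2 counts in the α7G controls, 3 in the male α7E260A:G control and 0 in the other 5 libraries, all at or under the floor. With mean counts of 5.12 and 0.75 these genes fell below the minimum of 10 and were not tested in the main edgeR model. With at least 1 count as the filter, edgeR tested all 9 genes. It called 0 of them between genotypes or for CS in α7E260A:G, beside 69 and 3 of 17542 genes. Unadjusted p-values under 0.05 were given to 2 of the 9 between genotypes and to 1 for CS in α7E260A:G, beside 1711 and 499 of 17542 genes. Prtn3, which encodes proteinase 3 of the same granules, had 2 to 21 counts, and Ctsg, which encodes cathepsin G, had 0 to 9.

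Csf3r and Il1r2 encode surface receptors of mature neutrophils, the first for granulocyte colony-stimulating factor and the second a decoy that binds interleukin-1 without signalling. Csf3r (mm9 chromosome 4, 125701794 to 125722219) was at 374 RPM in the male and 54.3 in the female α7G control, and at 92.9 and 86.2 in α7G CS. In α7E260A:G it was at 296 and 128 RPM in controls and 177 and 113 after CS. The male α7G control was the highest library and the female of the same group the lowest. Il1r2 (mm9 chromosome 1, 40141613 to 40182064) was at 32.1, 8.43, 8.50 and 12.3 RPM in the α7G libraries and at 17.3, 16.9, 8.10 and 7.41 in the α7E260A:G libraries, in the same order. The male α7G control was again highest.

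Over both genotypes Il1r2 was at 9.08 ± 2.19 RPM after CS and 18.7 ± 9.84 in controls (n = 4 in each, exact permutation p = 0.0857). The log2 fold-change was -1.01 ± 0.40 by edgeR (unadjusted p = 0.0352, adjusted p = 0.645), and it was the only 1 of the 7 tested genes with an unadjusted p under 0.05 for CS, as 7.64% of all genes had. Of all genes 0% were called for CS over both genotypes. Without the male α7G control the log2 fold-change was -0.41 (adjusted p = 0.977), so the size of the difference depended on that library. Within α7E260A:G, where that library plays no part in the means, the CS library held 0.47 times the Il1r2 level of the control in males and 0.44 times in females. Exposures did not overlap there, as in 20.9% of all genes, and the log2 fold-change of -1.22 ± 0.56 was not called by edgeR (unadjusted p = 0.0641, adjusted p = 1.00). In α7G the male pair was at 0.26 times and the female pair at 1.46 times control.

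For Csf3r the male α7G control decided the direction of the CS response in α7G. The log2 fold-change in α7G was -1.09 ± 0.73 by edgeR (adjusted p = 0.639), and it was 0.82 without the male control and -1.89 without the female. By sex, Csf3r after CS was at 0.25 times control in α7G males and 1.59 times in α7G females, and at 0.60 and 0.88 times in α7E260A:G. With each library left out in turn, its log2 fold-change with CS in α7E260A:G stayed below 0, from -0.92 to -0.084. By genotype the log2 fold-change was 0.40 ± 0.51 (edgeR adjusted p = 0.870). With the length dependence removed the male α7G control stayed highest, at 8.08 (log2 CPM) against 5.57 to 7.73 in the other libraries.

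**Figure D4:**
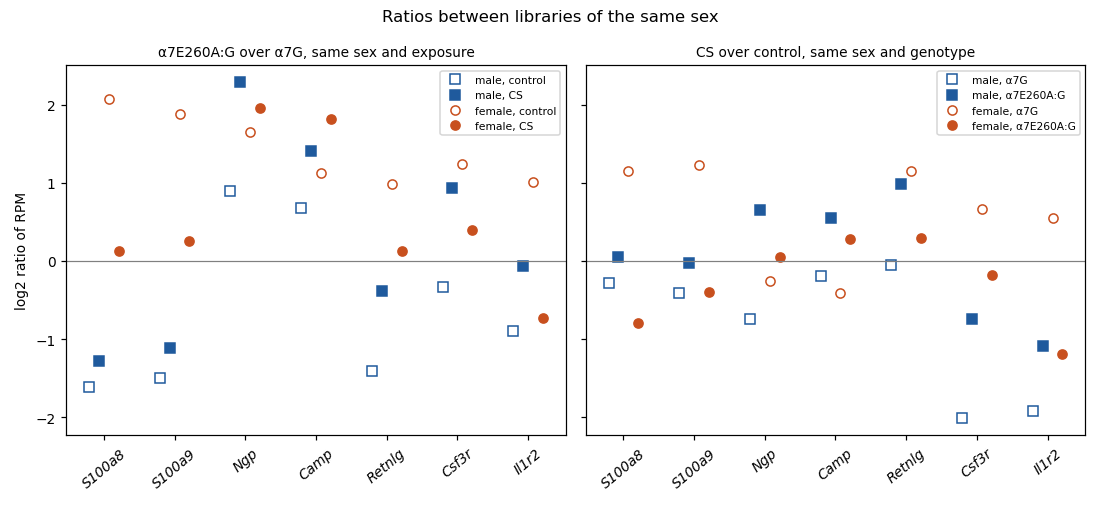
Log2 ratio of RPM between α7E260A:G and α7G libraries of the same sex and exposure (left) and between CS and control libraries of the same sex and genotype (right), with males as squares and females as circles. Mpo and Elane are not drawn. Of the 7 genes drawn, only Ngp and Camp are above 0 in all 4 pairs on the left, and S100a8, S100a9 and Retnlg split by sex. On the right the lowest values are those of Csf3r and Il1r2 in the α7G males, 0.25 and 0.26 times control.

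Of the 15 neutrophil markers listed, 6 were highest in the male α7G control (Cxcr2, Csf3r, Mmp9, Stfa2l1, Il1r2 and Trem1), 4 in the female α7E260A:G CS library and 5 in other controls, and their sum was highest in the female α7E260A:G control. Cxcr2, the chemokine receptor that brings neutrophils into tissue, was at 115 RPM in the male α7G control and at 29.7 to 66.2 in the other 7 libraries. Il1b, which encodes interleukin-1 beta, was at 561 RPM there against 101 to 215, and Mmp9, a protease of the gelatinase granules named here after its values were seen, was at 289 against 42.0 to 113. S100a8 and S100a9 were not highest in the male α7G control, and Ngp and Camp were among their lowest there. Ptprc was also highest there, at 1935 RPM. The part of this library's cell composition in the receptor values was not tested.

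The wider sets of neutrophil genes were tested in the same model, and 0 genes of any list were called in any of the 5 comparisons. Of 20 neutrophil surface genes tested, 17 were higher and 3 lower in α7E260A:G, with a median log2 fold-change of 0.54 against 0.03 over all genes. Of these 20, 8 of the higher and 1 of the lower had an unadjusted p under 0.05, a larger share than the 11.4% of all genes. Several of them, such as Itgb2, Fcgr3 and Fpr1, are also genes of macrophages, whose markers were higher in 15 of 15 cases (median 0.81), and the part of macrophages in these values was not tested. Itgb2, the beta-2 integrin chain, was higher by 0.55 (adjusted p = 0.252), Fpr1, a receptor for formylated peptides, by 0.70 (adjusted p = 0.365), and Selplg, the selectin ligand, by 0.05. Of 14 specific and gelatinase granule genes, 9 were higher and 5 lower, with a median of 0.56, led in abundance by Chi3l3 (log2 fold-change 1.48), Hp (-0.57) and Cyba (0.54). Chi3l3 is also a gene of alveolar macrophages and has near-identical copies. Of 12 cytosolic and secreted neutrophil genes, 7 were higher and 5 lower, with a median of 0.15, and of 4 granulopoiesis transcription factors 2 were higher and 2 lower. Of the 9 primary granule genes listed only Gusb and Cd63, which lysosomes of many cells also hold, were abundant enough to test, and their log2 fold-changes were 0.62 and 0.48.

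With CS over both genotypes, the medians of the surface, specific granule, cytosolic and transcription factor lists lay between -0.08 and 0.04 beside 0.01 for all genes. Of the 14 neutrophil markers tested, members included, 2 were higher and 12 lower with CS, with a median of -0.29 and 0 called. In α7G 4 were higher and 10 lower (median -0.33), and in α7E260A:G 6 were higher and 8 lower (median -0.19). Of the 15 markers listed, 6 were highest in the male α7G control, as given above. The primary granule genes Gusb and Cd63 had log2 fold-changes of 0.09 and 1.17, and Cd63 had an unadjusted p of 0.0174. Among neutrophil growth factors and chemoattractants, 5 of 11 were higher and 6 lower with CS, and Csf3, which encodes the ligand of Csf3r, had 0 counts in 7 libraries and 6 in the female α7E260A:G control. Cxcl15, a lung epithelial chemokine for neutrophils and the most abundant of this list, was at 416 to 780 RPM in α7G and 111 to 464 in α7E260A:G. Its log2 fold-change between genotypes was -0.98 (edgeR adjusted p = 0.546). Among receptors of S100a8/S100a9 and of interleukin-1 and their partners, 3 of 7 were higher and 4 lower in α7E260A:G. The log2 fold-change of Ager, the receptor for advanced glycation end products, was -1.09 (adjusted p = 0.331), and those of Bsg and Cd36 were -0.30 and -0.03.

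Among the genes averaging 10 counts or more that are not among the 9, those most like the mean of S100a8 and S100a9 over the 8 libraries, by Pearson r of log2(RPM + 0.5) and as a description only, were Ccdc51 (r = 0.95), Nudt22 (r = 0.94), Slc10a3, Eef1e1 and Arhgdib (r = 0.90). Those most like Ngp were Spc25 (r = 0.97), A430084P05Rik, Prelid2, Fah and Chchd8. A430084P05Rik and Spc25 were also among the 5 most like Camp. Those most like Csf3r were Foxred1 (r = 0.98), Sema4a, Dhx35, Gad1-ps and Unc93b1, and those most like Il1r2 were Gpr162 (r = 0.96), Selplg, C1qc, Dffb and Fgl2. Retnlg was most like Rmnd5b (r = 0.95), Mrpl46, Znhit3, Tmem41b and Ypel5. All points share the depth, sex and length dependence of the same 8 libraries.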

How the data were processed

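RNA was sequenced from 8 mouse libraries, 1 male and 1 female in each of the 4 groups, prepared as stranded poly(A) RNA. The authors aligned reads with STAR to mm9 (NCBIM37) and counted them on coding sequence with HTSeq and GENCODE M1, and deposited raw counts of 22756 genes per library. Coordinates and CDS lengths came from GENCODE M1 of the same build, and promoter windows from RefSeq (GRCm38.p6). RPM used the total counts of each library (8020726 to 10944100).

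Counts were tested with edgeR 4.0.16 under R 4.3.3 with limma 3.58.1. The functions were glmQLFit and glmQLFTest after TMM scaling, in a model of the 4 groups, for the 13637 genes averaging 10 counts or more, with Benjamini-Hochberg adjustment at 0.05 over all of them. The study's own minimum of 200 would leave 4 of the 9 genes and was kept as an alternative. The standard error of a log2 fold-change is its size divided by the root of F. For single genes, an exact two-sided permutation test of RPM used 4 against 4 libraries (70 arrangements). CDS length dependence was removed by smoothing the log2 deviations of a library against log2 CDS length (lowess, span 0.667). Scripts were tested on simulated data. Alternatives were DESeq2 1.42.0, library size scaling, filters of 200 or 1 count, sex as a replicate block, the length offset, both together, and leaving out each library. The model of genotype and sex, the sex term with and without the length offset, the length-adjusted levels and the fit without the α7E260A:G controls were added after the data were seen.

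The 9 genes and all gene lists were chosen with earlier results of these data known. Genes named beyond the 9 were at most the 3 of highest mean count in each pathway list, the markers Ly6g, Cxcr2 and Ptprc, and the 5 most alike in pattern, and any other named gene was chosen after its values were seen. The listed symbols Azu1, BC117090, Wfdc21, Gfi1, Cebpd, Spi1, Siglecf and Jchain matched no counted gene, and nothing was analysed under these names. Mpo and Il1r2 overlap antisense noncoding genes (Gm11505 and Gm16894). The library kit marks strand, and whether counting used it is not given in the sources used here. The female α7G libraries are titled alpha7, and their genotype label gives the α7G line. Python 3.11.15 with numpy 2.4.6, pandas 2.3.3, scipy 1.17.1 and matplotlib 3.10.9 was used.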

Additional observations from a re-analysis of the deposited data

Results flagged for a closer look

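Genotype effects were opposite in male and female libraries for S100a8, S100a9 and Retnlg, in RPM and in both exposures. S100a8 and S100a9 moved together and are not separate cases. These flags, and those of Ngp and Camp below, came from 21 screens of direction. The share of all genes with such a pattern was not computed, so these flags were not set against chance. Ngp and Camp also moved together (Pearson r = 0.96 over the 8 libraries) and are not separate cases. The mean log2 ratio of α7E260A:G to α7G was higher in females than in males by 2.54 for S100a8, by 2.38 for S100a9 and by 1.45 for Retnlg. In edgeR's model of genotype and sex the adjusted p was 0.313 for each, and the unadjusted p was 0.0026, 0.0027 and 0.0056. The length dependence of the libraries was steepest and of opposite sign in the α7E260A:G controls, and with it removed the male α7E260A:G control was at 8.57 (log2 CPM) of S100a8 against 9.99 in the female. On that scale S100a8 and S100a9 stayed opposite in both exposures, and Retnlg in controls only.

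In RPM, the CS responses of Ngp and Camp had opposite directions in the genotypes, lower after CS in both α7G pairs and higher in both α7E260A:G pairs. The mean log2 ratio was higher in α7E260A:G by 0.85 for Ngp and by 0.71 for Camp. The female α7E260A:G pair of Ngp was at 1.04 times control in RPM, and turned on the log2 CPM scale, from 5.55 in control to 5.48 after CS, and from 5.38 to 5.34 with the length dependence removed. The difference itself, tested by edgeR, was 0.33 ± 1.24 (log2, SE) for Ngp and 0.45 ± 1.48 for Camp, with an adjusted p of 1.00 for both.

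Among the 4 α7G libraries the male control stood apart for Csf3r, at 374 RPM, and for Il1r2, at 32.1 RPM, by Dixon's test at 95%. Of 28 groups of 4 libraries screened, 2 were flagged, and chance flags about 1 in 20.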

How the results depend on the processing

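Counts of genes called by edgeR moved with the treatment of the counts. With DESeq2, 25 genes were called for CS in α7G (0 before), 35 in α7E260A:G (1 before), 11 for the difference of the responses (0), 516 between genotypes (13) and 68 for CS over both genotypes (0). Library size scaling and the minimum of 200 gave 0 in α7E260A:G, and the latter gave 6 between genotypes. With at least 1 count as the filter, 3 were called in α7E260A:G, 69 between genotypes and 1 for CS over both. The length offset gave 2, 1, 235 and 2 calls for CS in α7E260A:G, the difference, genotype and CS over both. Of the 9 genes, 1 was called between genotypes with DESeq2 (Ngp).

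Sex was entered as a replicate block although the pairing rests on sex alone: the male-minus-female deviations of the groups correlated with r between -0.02 and 0.59, not all above 0.1. The block gave 0 calls in α7E260A:G and 43 between genotypes, with Ngp (1 of the 9) called at an adjusted p of 0.0412. The block with the length offset gave 9 calls in α7E260A:G, 1 for the difference, 581 between genotypes and 13 for CS over both, with 2 of the 9 called, Ngp (adjusted p = 0.00137) and Camp (adjusted p = 0.0105). It changed no other call of the 9.

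Log2 fold-changes of uncalled genes turned as follows. CS in α7G turned with the offset to -0.31 for S100a8 and -0.23 for S100a9, and with block and offset to -0.40 and -0.34. The difference of responses turned for Retnlg to 0.0022 with library size scaling, 0.35 with the offset and 0.43 with both, and for Csf3r to -0.11 with both. The genotype difference turned with the block to -0.12 for S100a8, -0.093 for S100a9 and -0.10 for Retnlg, which was -0.079 with library size scaling, and CS over both genotypes turned to 0.069 for Camp. The cause was not tested.

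Without each library in turn, which leaves 1 library in a group and assumes that it varies like the others, the genes called ranged from 0 to 142 for CS in α7E260A:G, from 0 to 97 for the difference of the responses, from 1 to 646 for genotype, from 0 to 100 for CS over both genotypes, the highest always without 1 of the α7E260A:G controls (the female for genotype, the male otherwise), and between 0 and 1 of the 9 genes was called between genotypes (Ngp, without the male α7E260A:G control). For CS in α7G the log2 fold-changes that turned ranged from -0.081 to 1.23 for S100a8, from -0.14 to 1.23 for S100a9, from -1.32 to 0.48 for Ngp, from -1.23 to 0.95 for Camp, from -1.89 to 0.82 for Csf3r, from -1.45 to 0.40 for Il1r2. For CS in α7E260A:G the log2 fold-changes that turned ranged from -1.86 to 1.15 for S100a8, from -1.64 to 1.15 for S100a9, from -0.93 to 1.63 for Ngp, from -1.30 to 2.03 for Camp, from -0.29 to 1.63 for Retnlg. For the difference of the responses the log2 fold-changes that turned ranged from -2.27 to 0.74 for S100a8, from -2.01 to 0.78 for S100a9, from -0.65 to 1.91 for Ngp, from -1.04 to 2.28 for Camp, from -0.92 to 1.01 for Retnlg, from -1.39 to 1.31 for Csf3r, from -1.62 to 0.23 for Il1r2. For genotype the log2 fold-changes that turned ranged from -0.71 to 0.62 for S100a8, from -0.56 to 0.64 for S100a9, from -0.54 to 0.40 for Retnlg, from -0.56 to 0.36 for Il1r2. For CS over both genotypes the log2 fold-changes that turned ranged from -0.73 to 0.78 for S100a8, from -0.63 to 0.76 for S100a9, from -0.64 to 0.68 for Ngp, from -0.77 to 0.89 for Camp, from -1.23 to 0.12 for Csf3r. The summed level of the 9 genes, with log2 differences of 0.08 between genotypes and -0.12 with CS, moved by less than its SD of 0.74 with logs averaged, without S100a8 and S100a9, and without each library in turn, over which its direction turned, from -0.30 to 0.29 between genotypes and from -0.36 to 0.24 with CS. At 2 libraries a group and a common dispersion of 0.106, the test of the 7 genes rests on few libraries, and Mpo and Elane are limited by their counts.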

Other observations

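Cxcr1, a second chemokine receptor of neutrophils, was singled out after its values were seen. It had 157 and 338 counts in the male and female α7G control, 234 and 235 in α7G CS, 254 and 575 in the α7E260A:G control, and 2118 and 1334 in α7E260A:G CS. Both α7E260A:G CS libraries were thus above the other 6. By edgeR, CS changed it by 2.15 (log2) in α7E260A:G and 0.09 in α7G, with adjusted p-values of 1.00 and 0.950, and an unadjusted p of 0.0137 for their difference (2.06). Cxcr2, its close relative, did not share this pattern, with 515 and 554 counts in α7E260A:G CS against 543 and 485 in the α7E260A:G control.

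Ltf and Lcn2 encode lactoferrin and lipocalin 2 of the specific granules and are also made by airway epithelium. They did not follow Ngp and Camp in the difference between genotypes, and were likewise named after their values were seen. Ltf was at 157 to 565 RPM in α7G and 192 to 367 in α7E260A:G, and Lcn2 at 107 to 183 and 58.0 to 171. Their log2 fold-changes between genotypes were 0.02 and -0.34 by edgeR, with adjusted p-values of 0.992 and 0.870. In the male and female library, Ltf was at 312 and 565 RPM in the α7G control and 157 and 239 in α7G CS. In α7E260A:G it was at 192 and 302 RPM in controls and 254 and 367 after CS. Like Ngp and Camp, Ltf was thus higher in each female, as were 6.81% of all genes. Its CS responses in RPM were also opposite in the genotypes, as theirs were.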
